A study of Homo sapiens with 18 samples.

Results

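DDIT4, DDIT4L, SESN1, SESN2, SESN3, DEPTOR and AKT1S1 encode inhibitors of the mTORC1 kinase complex, several of them known to be induced by stress. These 7 genes were chosen by name for that role, by a rule that uses no measured value, although earlier results of these data were known when they were chosen. All 7 had a row among the 25435 gene rows of the count table. The cells were HEK293doxERN2, a human embryonic kidney line (HEK293) carrying a FLAG-tagged ERN2 transgene that doxycycline switches on, and RNA-Seq was performed on 18 libraries in 6 groups of 3. Cells received doxycycline at 0 ng/mL (no ERN2), 10 ng/mL (low ERN2) or 100 ng/mL (high ERN2) over 24 hours. At each dose, cells were then given thapsigargin, a blocker of the ER calcium pump that provokes ER stress, at 200 nM for 3 hours, or the same volume of DMSO (vehicle). ERN2 is the epithelial form of the ER stress sensor IRE1. All 6 groups carried the transgene, and no group without it was given doxycycline, so that ERN2 induction and doxycycline itself cannot be told apart here. Whether the line is a single clone is not given in the sources used here.

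mTORC1 promotes protein synthesis and growth when nutrients and growth factors are plentiful, and it is held back under stress. DDIT4, also called REDD1, and its paralog DDIT4L (REDD2) act through the TSC complex, which turns off the small GTPase RHEB that mTORC1 needs. The sestrins act on the amino acid branch, where SESN2 is a leucine sensor that binds GATOR2. DEPTOR and PRAS40, the product of AKT1S1, instead bind mTORC1 itself. In ER stress, DDIT4 and SESN2 are known targets of the ATF4 branch of the unfolded protein response, while SESN1 and SESN2 are known targets of p53 and SESN3 of FOXO factors.

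Library totals over the gene rows ran from 14876416 to 24652240 reads. ERN2 followed its labels in rank, at 6.57 to 14.2 CPM (reads relative to the TMM-scaled library total) without doxycycline, 22.6 to 111.5 at low and 174.9 to 309.3 at high ERN2, but within the low ERN2 thapsigargin group it varied from 32.1 to 111.5 CPM. The 6 HEK293 markers examined (PAX2, NEFM, NEFL, INA, LIN28B and VIM) were detected in every library and summed to 1541 to 2647 CPM. Of 8 colon epithelium markers, examined because the extraction label names colon crypt cells, 7 stayed under 1 CPM in every library and CDX2 reached 3.36 to 8.83 CPM. Replicate 1 of high ERN2 with thapsigargin differed from the other 2 of its group by a median absolute log2 difference of 0.34 over genes. This was the largest such value among the 18 libraries. By other values replicates 2 and 3 were the unusual libraries of that group. Their TMM factors, 0.955 and 0.925, were the lowest of all, against 1.029 in replicate 1. Their ERN2 (175.0 and 174.9 CPM) lay below every high ERN2 vehicle library (248.7 to 309.3 CPM), unlike replicate 1 (271.9 CPM). Which of them is atypical was not tested. Calls and list counts that involve this group are given with and without replicate 1. The fits without it are not to be read as cleaner. The labels do not say whether replicates were separate cultures, so p-values measure only the spread between these samples.

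The promoters of the induced pair, DDIT4 and SESN2, are shown first, beside that of SESN3, a sestrin that did not pass the test in any comparison. Each run holds the 250 bases before the RefSeq start on GRCh38.p14, written 5' to 3' on the gene's strand, at chr10:72273674-72273923 (plus strand) for DDIT4, chr1:28259268-28259517 (plus strand) for SESN2 and chr11:95232476-95232725 (minus strand) for SESN3. Capitals mark CCAAT as well as ACGTG or else CCACG on either strand, where ATTGG is the reverse complement of the first and CGTGG that of the last.
DDIT4: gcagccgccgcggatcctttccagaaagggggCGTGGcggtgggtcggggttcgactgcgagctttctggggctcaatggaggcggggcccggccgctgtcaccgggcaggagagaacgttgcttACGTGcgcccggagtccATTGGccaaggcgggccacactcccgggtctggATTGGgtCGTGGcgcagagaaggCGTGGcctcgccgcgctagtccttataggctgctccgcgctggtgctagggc
SESN2: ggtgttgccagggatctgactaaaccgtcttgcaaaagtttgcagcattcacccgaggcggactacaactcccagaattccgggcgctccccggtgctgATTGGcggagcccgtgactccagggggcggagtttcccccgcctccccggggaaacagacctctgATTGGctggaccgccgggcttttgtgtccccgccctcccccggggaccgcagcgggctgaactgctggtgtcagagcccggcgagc
SESN3: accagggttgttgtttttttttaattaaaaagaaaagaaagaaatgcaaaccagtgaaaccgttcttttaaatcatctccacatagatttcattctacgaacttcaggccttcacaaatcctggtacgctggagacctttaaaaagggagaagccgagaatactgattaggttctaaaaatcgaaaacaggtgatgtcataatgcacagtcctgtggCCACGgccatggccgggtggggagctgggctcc
The CCAAT box occurred 2 times in each of the DDIT4 and SESN2 windows, on the minus strand in all cases. At least 1 was present in 32.0% of the 35116 promoters of 250 bases searched in the same way. The share of promoters with 2 was not counted. In DDIT4 the boxes began 108 and 75 bases before the start, and in SESN2 151 and 86 bases before it. The DDIT4 window also held 1 ACGTG, found in 18.5% of promoters, and 3 CCACG, found in 33.5%, of which none overlapped. The SESN3 window held 1 CCACG and no CCAAT. The composite letters TGATGNAA, present in 3.14% of promoters, were in none of the members' windows. SESN1, which did not rise, has 3 RefSeq starts, of which 2 had 1 CCAAT each, and 1 of these 2 windows also held 2 CCACG. The single DDIT4L window had none of the 4 motifs. Such letter matches describe the windows only.

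The 7 genes spanned a wide range of levels. Per kilobase of exon (GENCODE 29), the mean over 18 libraries was 42.5 CPM per kb for SESN2, 38.3 for AKT1S1 and 21.6 for DDIT4, followed by 10.6 for SESN3 and 9.71 for SESN1. DEPTOR lay far below them at 0.73 CPM per kb, and DDIT4L at 0.085. With the longest coding transcript as the length, AKT1S1 came first at 60.4 CPM per kb and SESN2 stayed at 42.5, so the order of these 2 genes depends on the length used. SESN1 then moved to 14.2 CPM per kb, above SESN3 at 11.7. DDIT4 on chromosome 10 (72273920 to 72276036, plus strand) is overlapped by the antisense gene DDIT4-AS1 over 1066 bases, and SESN3 on chromosome 11 (95165513 to 95232541, minus strand) over its whole span by AP000787.1. The library kit marks strand, but how strand was treated in counting is not given in the sources used here, so reads of antisense partners may be included.

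**Figure D1:**
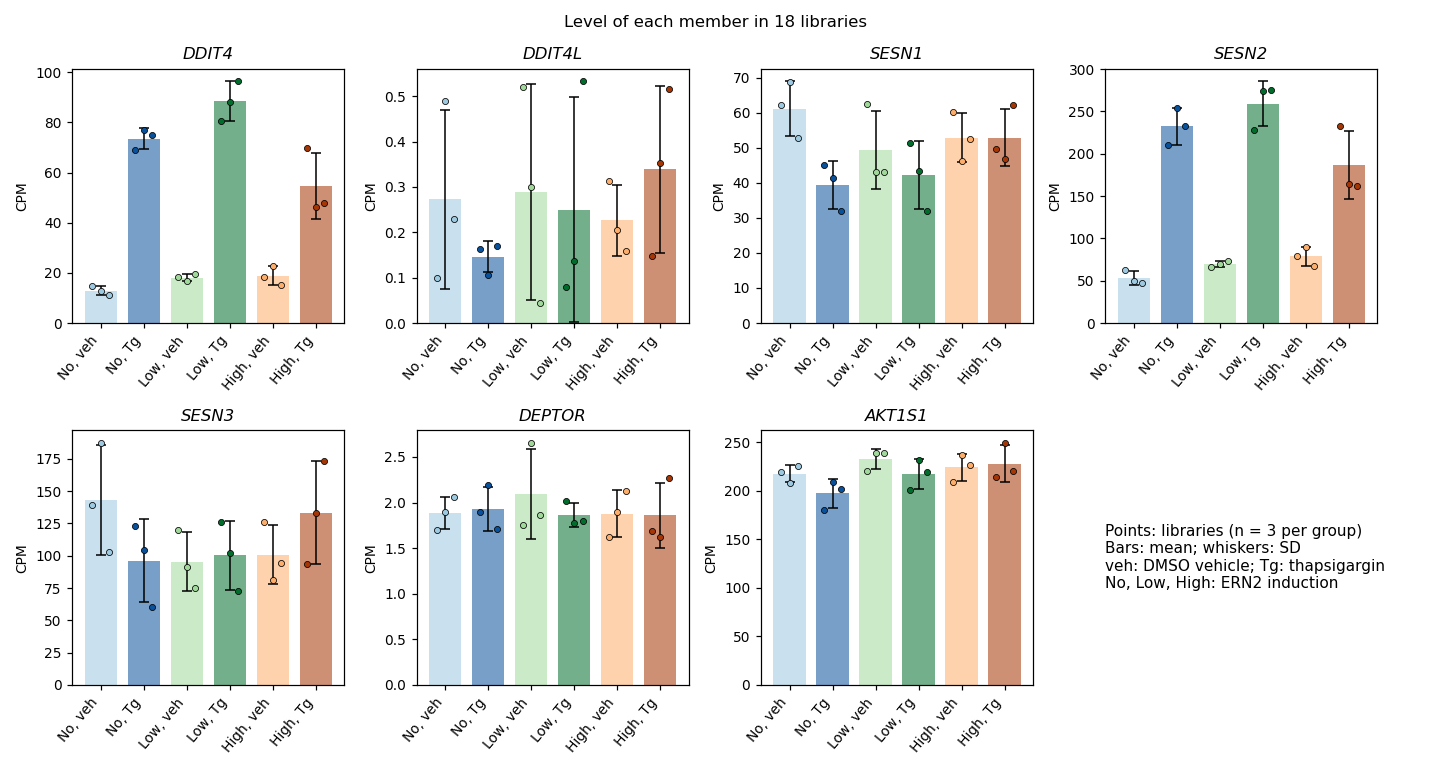
CPM (scaled by TMM) of each of the 7 genes in 18 libraries, by group on the horizontal axis, with points for libraries, bars for the mean and whiskers for the SD (n = 3 per group). DDIT4 and SESN2 stood higher in every thapsigargin library than in any vehicle library. Of the other 5 genes, SESN1 without doxycycline was separated the other way, and the rest overlapped between vehicle and thapsigargin at each dose.

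The response to ER stress in cells without induced ERN2 was largest for DDIT4 and SESN2 among the members. DDIT4 rose 5.72-fold and SESN2 4.38-fold over 3 hours of thapsigargin, while SESN1 fell and the other tested members did not pass the test. Of the 6 members with enough reads to be tested, 3 passed an adjusted p of 0.01 (edgeR), against 11.2% of the 14397 genes tested.

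DDIT4 was measured at 14.8, 12.7 and 11.3 CPM in the vehicle libraries and at 69.0, 76.9 and 74.8 CPM with thapsigargin. The lowest thapsigargin library was 4.68 times the highest vehicle library. The log2 fold change was 2.52 ± 0.13 (SE, adjusted p = 6.59e-08), which ranked 10th of 14397 genes by p-value. SESN2 was measured at 62.6, 50.2 and 47.5 CPM with vehicle and at 210.0, 254.2 and 232.8 CPM with thapsigargin. Again the groups lay far apart, with the lowest thapsigargin library at 3.36 times the highest vehicle library. Its log2 fold change was 2.13 ± 0.13 (adjusted p = 2.65e-07), 14th by p-value.

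The other sestrins did not share this rise. SESN1 was at 62.1, 68.7 and 52.9 CPM with vehicle and at 45.2, 41.4 and 31.9 CPM with thapsigargin. The groups did not overlap, and SESN1 fell by 0.62 on the log2 scale (SE 0.15, adjusted p = 0.00888). This call was narrow: leaving out any 1 of the 6 libraries gave adjusted p of 0.0101 to 0.0353, and a fit of all 6 groups gave 0.0284. SESN3 was at 139.1, 187.6 and 102.6 CPM with vehicle and at 123.1, 104.8 and 60.5 CPM with thapsigargin. Here the groups overlapped and the log2 fold change of -0.56 ± 0.24 did not pass (adjusted p = 0.104).

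The direct binding inhibitors gave small differences. AKT1S1 ranged from 208.0 to 225.8 CPM with vehicle and from 180.7 to 209.4 CPM with thapsigargin, overlapping groups with a log2 fold change of -0.13 ± 0.10 (adjusted p = 0.373). DEPTOR was near the limit of what could be compared, at 34 to 36 reads per vehicle library and 30 to 41 per thapsigargin library, with a log2 fold change of 0.05 ± 0.25 (adjusted p = 0.911). DDIT4L, the paralog of DDIT4, had only 1 to 11 reads in each of the 18 libraries. It did not pass the filter on low counts in any comparison that used all its libraries. With a library left out it passed the filter in 4 fits of thapsigargin at low ERN2 and in 10 of the low ERN2 interaction. It was called in none of them. In the cells without doxycycline it gave 2, 9 and 4 reads with vehicle and 3, 2 and 3 reads with thapsigargin. Its response was therefore not detectable at this depth.

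At low ERN2 the same pair rose. Of the 6 members tested, DDIT4 and SESN2 passed, against 1.45% of 14607 genes. DDIT4 was at 18.2, 16.8 and 19.4 CPM with vehicle and 80.6, 88.3 and 96.6 CPM with thapsigargin, a log2 fold change of 2.28 ± 0.13 (adjusted p = 1.48e-05). SESN2 was at 66.7, 69.4 and 72.9 CPM with vehicle and 228.0, 274.3 and 275.3 CPM with thapsigargin, a log2 fold change of 1.89 ± 0.12 (adjusted p = 2.76e-05). Neither gene's groups overlapped, and both calls held when any 1 library was left out. SESN1 (log2 fold change -0.23 ± 0.20), SESN3 (0.07 ± 0.21), DEPTOR (-0.17 ± 0.26) and AKT1S1 (-0.10 ± 0.11) did not pass, with adjusted p from 0.508 to 0.862.

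At high ERN2 DDIT4 passed narrowly and SESN2 just missed the threshold, so that 1 of 6 members was called, against 0.201% of 14427 genes. DDIT4 was at 18.4, 22.8 and 15.3 CPM with vehicle and 69.8, 46.1 and 47.9 CPM with thapsigargin. SESN2 was at 79.0, 90.3 and 67.8 CPM with vehicle and 233.1, 164.3 and 161.8 CPM with thapsigargin. For both genes every thapsigargin library exceeded every vehicle library, and thapsigargin replicate 1 was the highest. The log2 fold change was 1.56 ± 0.21 for DDIT4 (adjusted p = 0.00925) and 1.26 ± 0.18 for SESN2 (adjusted p = 0.0104).

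Without thapsigargin replicate 1, the log2 fold changes became 1.32 for DDIT4 (adjusted p = 0.00019) and 1.05 for SESN2 (adjusted p = 0.000221), and 2568 genes passed in place of 29. Leaving out any of the other 5 libraries gave adjusted p of 0.0125 to 0.0839 for DDIT4 and 0.0126 to 0.0961 for SESN2, with log2 fold changes of at least 1.17. That library also had the highest ERN2 of its group, at 271.9 CPM against 175.0 and 174.9 CPM, and the part of this in the result was not tested. SESN1, at 60.2, 46.1 and 52.4 CPM with vehicle and 49.6, 46.8 and 62.2 CPM with thapsigargin, overlapped between the groups (log2 fold change 0.02 ± 0.16, adjusted p = 0.948). SESN3 (0.42 ± 0.23), DEPTOR (0.01 ± 0.29) and AKT1S1 (0.05 ± 0.13) did not pass either.

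**Figure D2:**
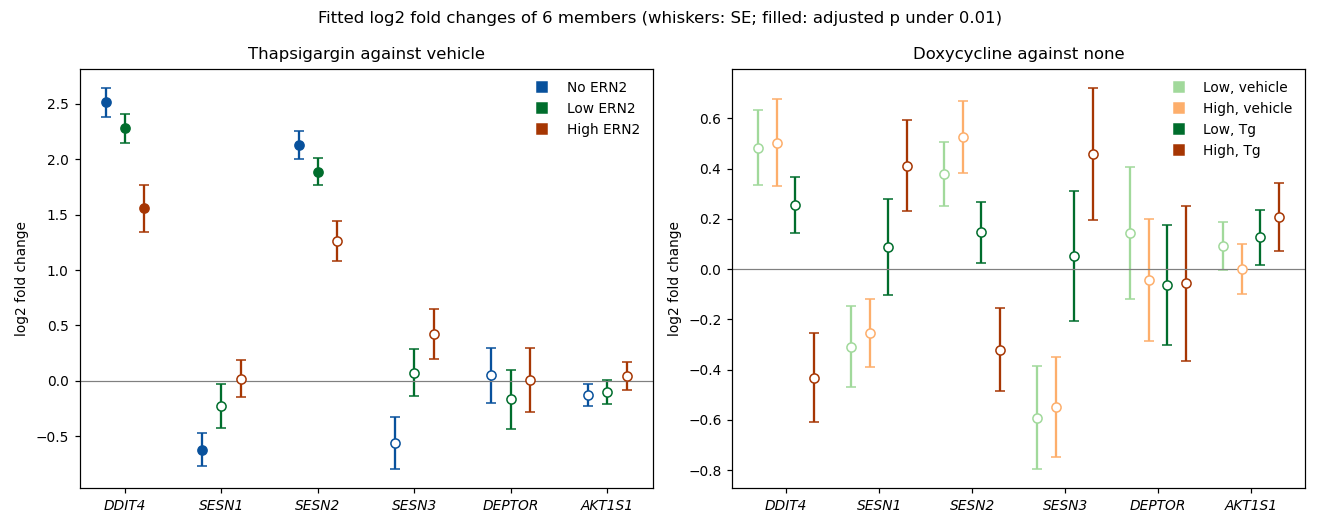
Fitted log2 fold changes (points) with SE (whiskers) of the 6 tested genes, for thapsigargin against vehicle at each ERN2 level on the left and for doxycycline against none on the right, with filled points where adjusted p was under 0.01. The DDIT4 and SESN2 responses to thapsigargin went from 2.52 and 2.13 without doxycycline to 1.56 and 1.26 at high ERN2. For both genes high ERN2 was higher than no doxycycline in vehicle and lower in thapsigargin, and no doxycycline comparison passed.

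Whether ERN2 changed the response to thapsigargin was tested as an interaction over 12 libraries. At high ERN2 the response minus that without doxycycline was -0.88 ± 0.25 for DDIT4 and -0.79 ± 0.22 for SESN2 on the log2 scale, and neither difference passed (adjusted p = 0.0815 for both). Their values ranked 556th and 555th by p-value of 14768 genes. SESN1 (0.72 ± 0.24, adjusted p = 0.101) and SESN3 (1.06 ± 0.41, adjusted p = 0.135) had values of the opposite sign and did not pass. In all, 0 of 6 members were called by edgeR, against 0.0406% of genes, while 4 had an unadjusted p under 0.05 and DESeq2 called 0. Among the 14768 genes, 3651 had an unadjusted p under 0.05 and DESeq2 called 341. For DDIT4 and SESN2 the difference in response combined higher vehicle values with lower thapsigargin values. High ERN2 against no doxycycline gave log2 fold changes of 0.50 and 0.52 in vehicle and -0.43 and -0.32 in thapsigargin, none of which passed by edgeR.

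Without high ERN2 thapsigargin replicate 1, the interactions of DDIT4 and SESN2 were -1.14 and -1.03 and both passed (adjusted p = 0.00309), in a fit that called 1286 genes in place of 6. Leaving out each of the other 11 libraries gave adjusted p between 0.0903 and 0.2032 for these 2 genes. A called difference in response at high ERN2 thus rested on leaving out that 1 library. At low ERN2 the interaction was -0.22 ± 0.17 for DDIT4 and -0.23 ± 0.17 for SESN2 (adjusted p = 0.779 for both). There edgeR called 0 of 6 members and 0% of 14857 genes (664 at an unadjusted p under 0.05, 3 by DESeq2), and no member had an unadjusted p under 0.05 or was called by DESeq2.

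**Figure D3:**
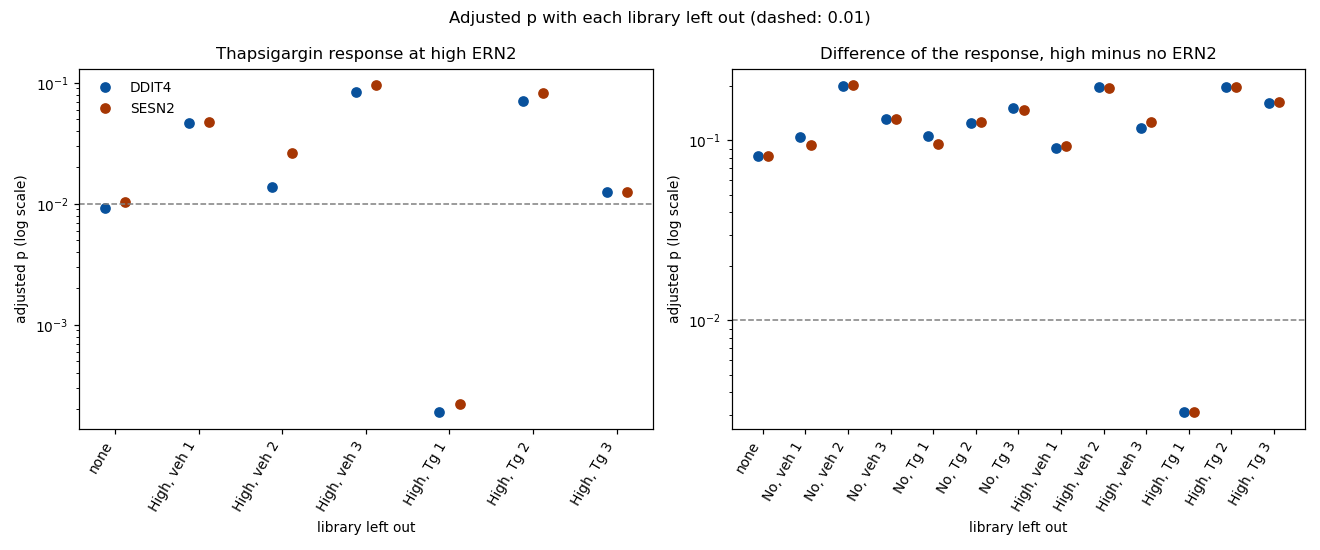
Adjusted p (log axis) of DDIT4 and SESN2 with no library left out and with every library left out once, for the thapsigargin response at high ERN2 (left) and for its difference from the response without doxycycline (right). Only the fit without high ERN2 thapsigargin replicate 1 put both genes under 0.01 (dashed line) in either panel.

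ERN2 induction in vehicle left all members short of the threshold. At high ERN2, 0 of 6 members were called by edgeR, against 8.33% of 14444 genes. Over all genes, 4237 had an unadjusted p under 0.05 and DESeq2 called 1650. Of the members, 3 had an unadjusted p under 0.05 and 1 was called by DESeq2. That member was SESN2, which lay at 67.8 to 90.3 CPM against 47.5 to 62.6 CPM without doxycycline. The groups did not overlap, and its log2 fold change was 0.52 ± 0.14 (adjusted p = 0.0278 by edgeR and 0.00573 by DESeq2). DDIT4 was also higher in each high ERN2 library than in any library without doxycycline, at 15.3 to 22.8 against 11.3 to 14.8 CPM, with a log2 fold change of 0.50 ± 0.17 (adjusted p = 0.0749). SESN3 gave -0.55 ± 0.20 (adjusted p = 0.0925), SESN1 -0.25 ± 0.13, DEPTOR -0.04 ± 0.24 and AKT1S1 0.00 ± 0.10.

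Low ERN2 in vehicle likewise had no member past the threshold. DDIT4 (0.48 ± 0.15, adjusted p = 0.0832), SESN2 (0.38 ± 0.13, adjusted p = 0.0892) and SESN3 (-0.59 ± 0.20, adjusted p = 0.0943) did not pass. By edgeR 0 of 6 members were called, against 0.193% of 14497 genes, with these 3 at an unadjusted p under 0.05 and 0 called by DESeq2. Over all genes, 4421 had an unadjusted p under 0.05 and DESeq2 called 381. Without low ERN2 vehicle replicate 1, which held the highest SESN1 (62.3 CPM against 43.0 and 43.1) and SESN3 (119.8 CPM against 91.0 and 74.8) of its group, SESN1 (-0.52, adjusted p = 0.00614) and SESN3 (-0.80, adjusted p = 0.00397) passed, in a fit that called 2743 genes in place of 28. The low and the high ERN2 comparisons share the 3 vehicle libraries without doxycycline, so their values are not independent.

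Among thapsigargin-treated cells, DDIT4 was at 46.1 to 69.8 CPM with high ERN2 against 69.0 to 76.9 CPM without doxycycline, and SESN2 at 161.8 to 233.1 against 210.0 to 254.2 CPM. For both genes the groups overlapped through replicate 1 of high ERN2 alone. The log2 fold changes of -0.43 ± 0.18 and -0.32 ± 0.16 did not pass (adjusted p = 0.100 and 0.183). Without that library they were -0.64 (adjusted p = 0.00193) and -0.50 (adjusted p = 0.00655). SESN1 (0.41 ± 0.18) and SESN3 (0.46 ± 0.26) had values of the opposite sign and did not pass (adjusted p = 0.124 and 0.234). Of 6 members 0 were called by edgeR, against 10.5% of 14358 genes, and 0 by DESeq2, which called 2331 genes. An unadjusted p under 0.05 was found for 2 of the 6 members and for 5112 of the 14358 genes.

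With low ERN2 in thapsigargin-treated cells, DDIT4 was at 80.6 to 96.6 CPM against 69.0 to 76.9 CPM without doxycycline, a log2 fold change of 0.26 ± 0.11 (adjusted p = 0.978). SESN2 gave 0.15 ± 0.12 in groups that overlapped. By edgeR 0 of 6 members and 0% of 14509 genes were called (612 genes and 1 member, DDIT4, at an unadjusted p under 0.05), and DESeq2 called 39 genes and 0 members. In this comparison same-numbered replicates deviated together, and with the replicate number as a block 564 genes passed but no member did, DDIT4 having an adjusted p of 0.0168.

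DDIT4 and SESN2 tracked each other across the whole experiment. Over the 18 libraries the Pearson correlation of their log2 CPM was 0.997, and no other of the 15023 genes kept by the filter was as close to either of them. The libraries share their groups, so most of this is the gap between vehicle and thapsigargin, but after the group means were removed the correlation was still 0.941. SESN2 CPM was 3.67 to 4.43 times that of DDIT4 in the 9 vehicle libraries and 2.83 to 3.56 times that in the 9 thapsigargin libraries. The next most similar genes were CHAC1 (0.989) and DDIT3 (0.988) for DDIT4, and CEBPB (0.991) and CHAC1 (0.990) for SESN2. CHAC1 encodes a glutathione-degrading enzyme, and DDIT3 (CHOP) and CEBPB encode transcription factors.

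SESN1 and SESN3 also varied together, though neither was among the 3 genes closest to the other. Their correlation over 18 libraries was 0.831 and rose to 0.896 once group means were removed, so they varied together between replicates of the same group. In the thapsigargin group without doxycycline, for example, replicate 3 was lowest for both (31.9 CPM for SESN1 and 60.5 CPM for SESN3), as was replicate 3 of low ERN2 with thapsigargin (32.1 and 72.8 CPM). Genes with a pattern like that of SESN1 included RBBP7 (0.944) and PIK3R4 (0.94), and those most like SESN3 were SYCP2 (0.961), MBNL3 (0.956) and CDK19 (0.942). All of these were closer over the 18 libraries than SESN1 and SESN3 were to each other (0.831). Correlations with group means removed were computed for the members only. For DEPTOR the closest gene was CELF6 at 0.76, at a depth of 23 to 53 reads per library, followed by CCDC152 (0.714) and LNP1 (0.631). For AKT1S1 the closest were NABP2 (0.92), TXN2 (0.884) and CSTB (0.866).

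**Figure D4:**
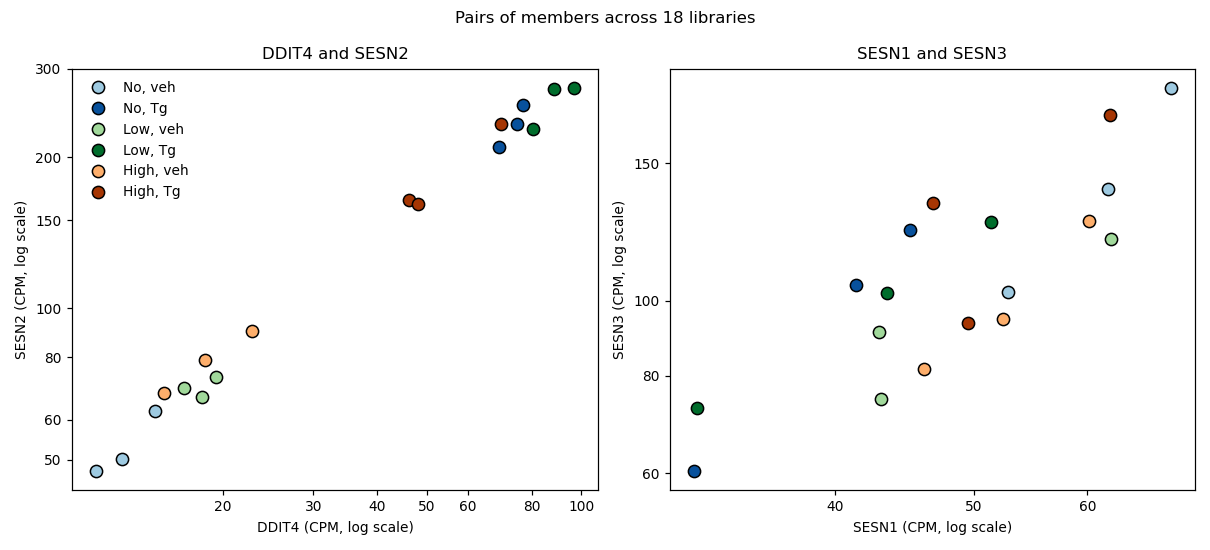
CPM (log axes) of SESN2 against DDIT4 (left) and of SESN3 against SESN1 (right), with 1 point per library (18) coloured by group. DDIT4 and SESN2 lay along a single line with vehicle and thapsigargin libraries at opposite ends, whereas SESN1 and SESN3 rose together within groups.

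The make-up of the sestrin family is given here as a description, without a test. SESN2 supplied 38.1% ± 5.48 (SD, n = 3) of the summed sestrin CPM per kb in vehicle without doxycycline and 80.04% ± 5.07 with thapsigargin. At low ERN2 its share went from 52.3% ± 6.49 to 80.8% ± 5.44, and at high ERN2 from 53.6% ± 6.48 to 69.8% ± 8.22, or to 65.4% (n = 2) without thapsigargin replicate 1. The ranges of vehicle and thapsigargin libraries did not overlap at any dose, although at high ERN2 they came close, with 61.0% the highest vehicle and 62.2% the lowest thapsigargin share. Without doxycycline the summed level was 41.0 ± 6.30 CPM per kb with vehicle and 84.1 ± 6.59 with thapsigargin. In bulk samples such as these, a change in the number of cells that express a gene and a change in RNA per cell cannot be told apart.

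Without doxycycline, the rest of the mTORC1 pathway was called about as often as genes in general. Of 68 tested genes from 11 lists (subunits of mTORC1 and mTORC2, the TSC complex, input kinases, GATOR1, GATOR2, KICSTOR, amino acid sensors, RAG GTPases with Ragulator, folliculin partners and mTORC1 substrates), 5 rose and 3 fell with thapsigargin without doxycycline, against the 11.2% of all genes given above. The median log2 fold change of the 68 was -0.0025, against -0.0066 over all genes tested. RHEBL1, a relative of the mTORC1 activator RHEB, had the largest rise (1.61 ± 0.23, adjusted p = 0.000363). EIF4EBP1, which encodes the translation repressor 4E-BP1, rose by 0.96 ± 0.14 (adjusted p = 0.000441), while its relative EIF4EBP2 fell by 0.82 (SE 0.13, adjusted p = 0.00073). The adaptor GRB10 (0.57), the AMPK subunit PRKAB1 (0.66) and the KICSTOR subunit ITFG2 (0.87) also rose. RRAGD, a RAG GTPase, and LAMTOR5, a Ragulator subunit, fell by 0.58 and 0.55. No gene of the mTORC1 and mTORC2 subunits, GATOR1, GATOR2, amino acid sensors or folliculin partners was called in this comparison.

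At low ERN2 RHEBL1 was the single call among the 68 (log2 fold change 1.54, adjusted p = 0.00389), against 1.45% of all genes. For thapsigargin at high ERN2 edgeR called 0 of 68, against 0.201% of all genes, with 14 at an unadjusted p under 0.05 and 0 by DESeq2. High ERN2 in vehicle gave 0 of 68 against 8.33%, with 14 at an unadjusted p under 0.05 and 2 by DESeq2. High ERN2 in thapsigargin gave 0 of 68 against 10.5%, with 25 and 6 by the same measures. The high ERN2 interaction gave 0 of 68 against 0.0406%, with 21 and 1. For these high ERN2 comparisons in turn, 3892 of 14427, 4237 of 14444, 5112 of 14358 and 3651 of 14768 genes had an unadjusted p under 0.05. DESeq2 called 732, 1650, 2331 and 341 genes in the same order. Without high ERN2 thapsigargin replicate 1, edgeR called 10 of 68 for thapsigargin (5 higher and 5 lower) against 17.6% of all genes, 19 for high ERN2 in thapsigargin (13 higher and 6 lower) against 27.2%, and 6 for the interaction, all higher, against 8.60%. In high ERN2 vehicle the median of the 68 was 0.125, against -0.0068 over all genes tested. The median was also 0.125 in low ERN2 vehicle, against 0.0024, in a comparison that shares the vehicle libraries without doxycycline. At high ERN2 in vehicle, SEC13 of GATOR2 (0.54 ± 0.14, adjusted p = 0.0183) and the substrate ATG13 (0.37 ± 0.10, adjusted p = 0.028) were among the closest to the threshold.

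A reference list of 12 genes of the ATF4 branch, which contains no member, was measured beside DDIT4 and SESN2. With thapsigargin, 10 of 12 rose without doxycycline (median log2 fold change 1.87), 10 of 12 at low ERN2 (median 1.77) and 5 of 12 at high ERN2 (median 1.14), beside 11.2%, 1.45% and 0.201% of all genes called in the same fits. Without replicate 1 of high ERN2 with thapsigargin, 10 of 12 rose there as well (median 1.09), beside 17.6% of all genes. The lower count at high ERN2 thus rested on that library, but the median was lower than without doxycycline either way. High ERN2 in thapsigargin gave 2 of 12 lower (median -0.45), beside 10.5% of all genes, and 7 of 12 lower (median -0.59) without that library, beside 27.2%. The high ERN2 interaction gave 0 of 12 (median -0.53), beside 0.0406%, and 5 of 12 lower (median -0.60) without it, beside 8.60%. DDIT3 rose by 3.96 ± 0.13 and CHAC1 by 4.58 ± 0.16 without doxycycline. In high ERN2 vehicle, 3 of the 12 rose (PPP1R15A 0.68, CHAC1 1.11 and DDIT3 0.67) and 2 fell (PSAT1 -0.82 and VLDLR -0.89). In that fit 8.33% of all genes were called, 121 higher and 1082 lower. The summed CPM of the list in the high ERN2 thapsigargin libraries was 2143 in replicate 1, against 1956 and 1803 in the others. Its mean log2 CPM was 6.35, 6.41 and 6.13 in replicates 1, 2 and 3, so their order depends on the measure. Of 10 tested genes of a p53 target reference list, 1 rose (PLK3, 0.89) and 2 fell (BTG2, -0.74, and CDKN1A, -0.56) with thapsigargin without doxycycline, beside the lower SESN1. The share of all genes called in that fit was 11.2%. The part of either list in the members' values was not tested.

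**Figure D5:**
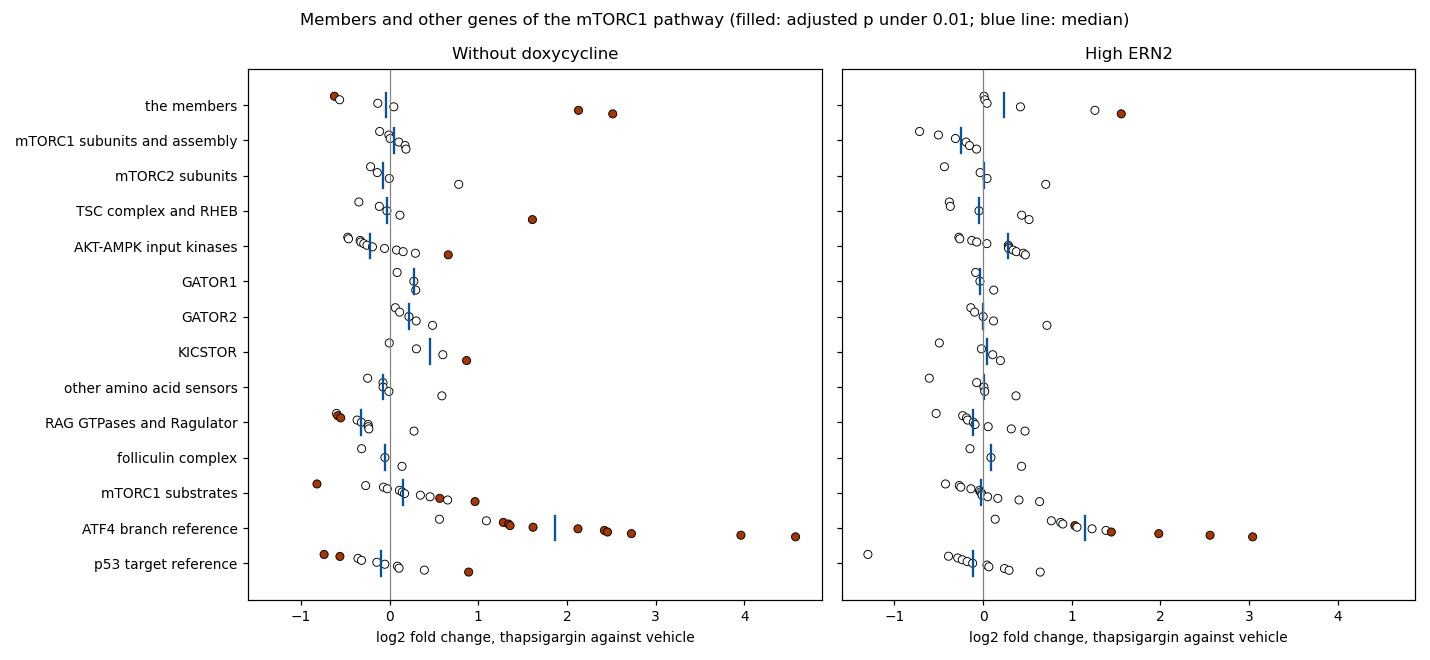
Log2 fold change of thapsigargin against vehicle for the tested members and for each gene of 11 mTORC1 pathway lists and 2 reference lists, without doxycycline (left) and at high ERN2 (right), with filled points where adjusted p was under 0.01 and a blue line at each list's median. DDIT4 and SESN2 lay to the right of every gene of the 11 pathway lists in both panels, within the range of the ATF4 branch list.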

How the data were processed

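RNA-Seq of HEK293doxERN2 cells covered 18 libraries in 6 groups, grouped by their labels. The authors prepared libraries with a stranded mRNA kit, aligned reads with STAR in the VIPER pipeline (hg38 and STAR per the labels' processing notes) and deposited raw counts per gene symbol. Versions, annotation and strand setting are not given in the sources used here. The members and gene lists were chosen with earlier results of these data known. Each comparison used only its own groups. Genes kept by filterByExpr (minimum count 10) were scaled by TMM and entered the quasi-likelihood test of edgeR 4.0.16 in R 4.3.3, with p-values adjusted by Benjamini-Hochberg across the whole table and a threshold of 0.01. The SE is the absolute log2 fold change over the square root of F. CPM were scaled by TMM over 18 libraries, and correlations used log2 CPM with a prior count of 2. Alternatives were DESeq2 1.42.0, RLE size factors, no filter, all 6 groups, a replicate block, an adjusted p of 0.05 and each library left out. For the lists and the sestrin shares, leaving out replicate 1 of high ERN2 with thapsigargin was chosen after seeing the data.

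Named genes were the 7 members, up to 3 genes per list with the smallest adjusted p in the thapsigargin response without doxycycline and in high ERN2 in vehicle, and the 3 genes most correlated with each member, of which 1 is not reported here. Promoter sequence came from RefSeq tables (GRCh38.p14), which matched 5 of the 7 members, and positions from GENCODE 29 (GRCh38). Replicate numbers come from the labels. They were taken to pair samples where all 3 pairs of a comparison correlated above 0.1 after removal of group means. That held for low ERN2 in thapsigargin alone (0.343 to 0.468). For thapsigargin the pairs were at 0.499, -0.0332 and 0.439 at low ERN2, and at 0.0828, 0.204 and 0.272 without doxycycline. A single pair thus missed the rule in each of those. The main fits used no pairing in any comparison. With 3 libraries against 3, an exact permutation test cannot go below 0.1 (two-sided), and the models fitted across genes were used instead. Replicates differed by more than sampling noise in every pair. Precision was limited by 3 libraries per group for well counted members and by counting for DDIT4L and DEPTOR. No value column was left unused.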

Additional observations from a re-analysis of the deposited data

How the results depend on the processing

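DDIT4 and SESN2 passed for thapsigargin without doxycycline and at low ERN2 under every alternative run. At high ERN2 the count of members called was 1. It was 2 with DESeq2, RLE size factors, no filter, all 6 groups and an adjusted p of 0.05, it was 0 with the replicate block (adjusted p = 0.0961 for DDIT4), and it ran from 0 to 2 with a library left out. It also ran from 0 to 2 with a library left out for low ERN2 in vehicle, high ERN2 in thapsigargin and the high ERN2 interaction, where the full fits called 0. For high ERN2 in vehicle it was 1 with DESeq2, no filter and an adjusted p of 0.05. The cause was not tested. The other counts of members called stayed within 1.5 times. With the replicate block, SESN3 passed for thapsigargin without doxycycline (-0.58, adjusted p = 1.16e-05), although replicate numbers were not taken as pairs there. Beside DDIT4 at high ERN2 and SESN3 here, the block changed no member's call.

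Counts over all genes moved more. For thapsigargin they were 1611 without doxycycline (3571 with the block, 3260 at an adjusted p of 0.05, 731 to 1901 with a library left out), 212 at low ERN2 (1101 with DESeq2, 529 with no filter, 676 with all 6 groups, 3620 with the block, 1009 at 0.05, 28 to 494 left out) and 29 at high ERN2 (732, 299, 941, 4 and 494 in the same order, 4 to 2568 left out). For low ERN2 in vehicle they were 28 (381, 623, 3, 124 and 110, 0 to 2743 left out), for high ERN2 in vehicle 1203 (750 with the block, 2063 at 0.05, 915 to 1397 left out), and for high ERN2 in thapsigargin 1512 (2331 with DESeq2, 2641 with all 6 groups, 3018 at 0.05, 763 to 3950 left out). For the high ERN2 interaction they were 6 (341, 86, 35, 3 and 149, 14 with RLE, 2 to 1286 left out), and the median log2 value over all genes went from 0.04 to -0.08 with all 6 groups.

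Small fold changes of members that were not called changed sign when a library was left out. DEPTOR ran from -0.055 to 0.14 for thapsigargin without doxycycline, -0.29 to 0.036 at low and -0.16 to 0.11 at high ERN2, -0.054 to 0.25 and -0.15 to 0.054 for low and high ERN2 in vehicle, -0.14 to 0.0398 and -0.22 to 0.053 for low and high ERN2 in thapsigargin, and -0.16 to 0.15 for the high ERN2 interaction (-0.016 with RLE, -0.069 with all 6 groups). SESN3 ran from -0.13 to 0.26 for thapsigargin at low ERN2 and from -0.19 to 0.27 for low ERN2 in thapsigargin, and SESN1 from -0.078 to 0.26 in the latter. For thapsigargin at high ERN2, SESN1 ran from -0.11 to 0.12 (-0.024 with all 6 groups) and AKT1S1 from -0.031 to 0.079 (-0.0022 with all 6 groups), with DEPTOR at -0.034 in that last fit. AKT1S1 ran from -0.042 to 0.054 for high ERN2 in vehicle (-0.00015 with all 6 groups, -0.00086 with the block) and from -0.018 to 0.092 for the low ERN2 interaction. Ranking by Spearman rho shared 0 to 1 of the 3 most similar genes for DDIT4, SESN1, SESN2 and DEPTOR. CPM on library totals moved no group mean of the 7 members by more than its SD.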
